A study of Mus musculus with 9 samples.

Results

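The genes of extracellular adenosine were examined as 10 transcripts chosen by symbol. They were the enzyme genes Nt5e, Entpd1, Entpd2 and Entpd3, which make adenosine from ATP, the receptor genes Adora1, Adora2a and Adora2b, and the clearance genes Slc29a1, Ada and Adk. Each of the 10 had 1 row among the 46517 genes of every table. The samples were organoids of the duodenum of wild-type C57BL/6J mice. They were started from isolated crypts, embedded in Matrigel and fed with L-WRN conditioned medium, a source of Wnt3a, R-spondin 3 and noggin. Organoids were dissociated and transduced with Ad-GFP (the control adenovirus, which carries GFP behind the CMV promoter), with Ad-hHIF2 or with Ad-hHIF1, and each group had 3 samples, numbered 1, 3 and 4. All 9 cultures therefore received an adenovirus, at 50 particles per cell, and RNA was taken about 72 hours later from cultures kept at 5% O2. Both HIFs were human proteins whose oxygen-sensing prolines had been changed to alanine, so they were not degraded when oxygen was present. The samples were described as biological replicates, but the mice's age and whether each sample came from its own mouse were not given in the sources used here, so p-values measure the spread between these cultures.

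ATP that leaves a stressed cell is cut at the cell surface by ectonucleotidases, first by Entpd enzymes to ADP and AMP and then by Nt5e (CD73) to adenosine. Adenosine acts on G protein-coupled receptors, of which Adora1 lowers and Adora2a and Adora2b raise cAMP, and it is removed by uptake through the equilibrative transporter Slc29a1 (ENT1), by deamination to inosine (Ada) or by phosphorylation to AMP (Adk). In intestinal epithelium in hypoxia, CD73, Adora2b and Slc29a1 have been linked to HIF and to barrier protection. HIFs bind DNA at the hypoxia response element, whose core is written ACGTG or GCGTG.

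The libraries held 21722618 to 51119041 expected counts. The mouse gene Epas1 (HIF2) was read at 604.3 to 757.5 CPM (counts scaled to library size and normalized) in the Ad-hHIF2 samples and at 1.47 to 3.07 CPM in the other 6. Its log2 fold change in Ad-hHIF2 against Ad-GFP was 8.6 (edgeR adjusted p = 8.06e-08). Hif1a was at 299.3 to 319.2 CPM in Ad-hHIF1 against 197.6 to 251.2 CPM in Ad-GFP. This difference was 0.49 and did not pass in edgeR (adjusted p = 0.486), though it did in DESeq2 (0.50, adjusted p = 5.76e-05). The HIF1 label was thus much less visible in RNA than the HIF2 label. Group means of the epithelial keratins were 1067.2 to 1255.6 CPM for Krt8 and 1076.5 to 1160.5 CPM for Krt18. Group means were 218.5 to 315.7 CPM for Cdh1, 7.21 to 8.02 CPM for the intestinal factor Cdx2, 3.99 to 4.72 CPM for the brush border gene Vil1 and 1.68 to 2.94 CPM for Epcam, while Cdx1 was at 0 in all 9 samples. In Ad-hHIF2 against Ad-GFP, Epcam fell (log2 fold change -0.81, edgeR adjusted p = 0.0472) and Cdh1 rose (0.53, adjusted p = 0.00313), and their part in the members' results was not tested. None of 4 crypt stem cell and 6 enterocyte markers averaged 1 CPM in any group. Of the stem cell markers, Ascl2 fell in Ad-hHIF2 against Ad-hHIF1 (log2 fold change -4.49, edgeR adjusted p = 0.0316). It had 0 to 3 counts in Ad-hHIF2 and 15 to 24 in Ad-hHIF1. Lgr5 was higher in every Ad-hHIF2 sample than in every Ad-GFP sample but did not pass (1.84, edgeR adjusted p = 0.0714). The part of Ascl2 and Lgr5 in the members' results was not tested. Reads on 1834 olfactory, vomeronasal and trace-amine receptor genes, which gut epithelium does not normally use, were taken as a measure of background. They summed to 87.4 to 152.4 CPM in Ad-GFP, 31.7 to 69 CPM in Ad-hHIF2 and 61.1 to 467.9 CPM in Ad-hHIF1, where replicate 3 also had 16% of its counts on the satellite-rich features Gm10800 and Gm26870 against 0.433% to 4.28% in the other 8 samples.

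Sequence around the start sites was read from RefSeq on GRCm38.p6, as windows of 300 bases from 250 before to 50 after each start. Of the 10 genes, 9 matched, with 19 windows. A match to ACGTG or GCGTG on either strand was found in 13 of the 19, with 25 matches in all, and in 43.8% of all 32851 windows (19.6% held ACGTG and 32.4% held GCGTG). The 4 windows belong to Entpd3, to Slc29a1 at its most upstream start and at the start with the most matches, and to Nt5e. They are shown because Entpd3 and Slc29a1 differed between Ad-hHIF2 and Ad-GFP in opposite directions and Nt5e had the highest mean level of the 10. Capitals mark the matches, CACGTG being a match on both strands at once and CACGC the reverse strand's GCGTG.
Entpd3: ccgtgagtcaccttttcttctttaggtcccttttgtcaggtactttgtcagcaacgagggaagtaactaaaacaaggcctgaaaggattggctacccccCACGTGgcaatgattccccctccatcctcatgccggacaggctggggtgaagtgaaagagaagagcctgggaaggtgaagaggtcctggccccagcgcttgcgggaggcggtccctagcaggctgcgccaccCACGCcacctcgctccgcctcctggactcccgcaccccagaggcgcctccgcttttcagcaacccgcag
Slc29a1 upstream start: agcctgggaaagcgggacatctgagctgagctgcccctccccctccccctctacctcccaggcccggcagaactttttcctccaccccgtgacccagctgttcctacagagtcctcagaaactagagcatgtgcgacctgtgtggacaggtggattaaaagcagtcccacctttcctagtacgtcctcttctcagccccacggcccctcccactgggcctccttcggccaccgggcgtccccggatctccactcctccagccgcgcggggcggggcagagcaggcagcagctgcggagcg
Slc29a1 internal start: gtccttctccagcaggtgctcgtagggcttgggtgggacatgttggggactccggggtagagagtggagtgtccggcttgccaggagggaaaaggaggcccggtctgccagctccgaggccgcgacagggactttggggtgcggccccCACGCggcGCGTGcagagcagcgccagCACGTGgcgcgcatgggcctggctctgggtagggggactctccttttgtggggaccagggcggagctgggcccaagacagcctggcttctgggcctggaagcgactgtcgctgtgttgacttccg
Nt5e: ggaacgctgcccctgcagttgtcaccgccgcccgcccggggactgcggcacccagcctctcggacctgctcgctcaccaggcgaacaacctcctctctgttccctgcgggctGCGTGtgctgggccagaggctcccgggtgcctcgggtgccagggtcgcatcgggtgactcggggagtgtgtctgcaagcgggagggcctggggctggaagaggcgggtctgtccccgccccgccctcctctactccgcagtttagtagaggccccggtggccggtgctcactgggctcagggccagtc

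The Entpd3 window (chr9:120539568-120539867, plus strand) held 3 matches, 2 of which were the overlapping CACGTG pair at position -151 from the start. The upstream Slc29a1 window (chr17:45599569-45599868, minus strand) held none, and the internal one (chr17:45595197-45595496, minus strand) held 4. Slc29a1 had 8 windows, of which 4 held a match. Nt5e (chr9:88327359-88327658, plus strand) held 1 match. Windows with at least 3 matches made up 8.93% of all windows. A match describes letters and is no evidence of binding.

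Levels were compared between genes after division by effective transcript length in kilobases, and are called CPM per kb. In Ad-GFP, Nt5e (31.4 to 33.6 CPM per kb) and Slc29a1 (30.4 to 33.6 CPM per kb) had the highest levels, and their ranges overlapped. Adk followed at 8.51 to 12.5, Entpd2 at 2.53 to 4.05 and Ada at 0.966 to 1.73 CPM per kb, with no overlap between these neighbours. Adora2a (0.0834 to 0.659), Adora2b (0.16 to 0.38), Entpd3 (0.106 to 0.24) and Adora1 (0.115 to 0.18) lay lower, and their ranges overlapped, so their order was not resolved. Entpd1, the classical ectonucleotidase CD39, was lowest at 0 to 0.0383 CPM per kb. The silent receptor genes gave 0.0496 to 0.0861 CPM per kb in the same samples, so Entpd1 was below that background and Adora2a in replicate 4 (0.0834 CPM per kb) lay within its range. In Ad-hHIF2 the interval between Nt5e (28.9 to 31.1 CPM per kb) and Slc29a1 (15 to 17.6 CPM per kb) was open, and Entpd3 (0.493 to 0.816 CPM per kb) stood above Adora2b (0 to 0.0805) and Adora1 (0.0353 to 0.0602).

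**Figure D1:**
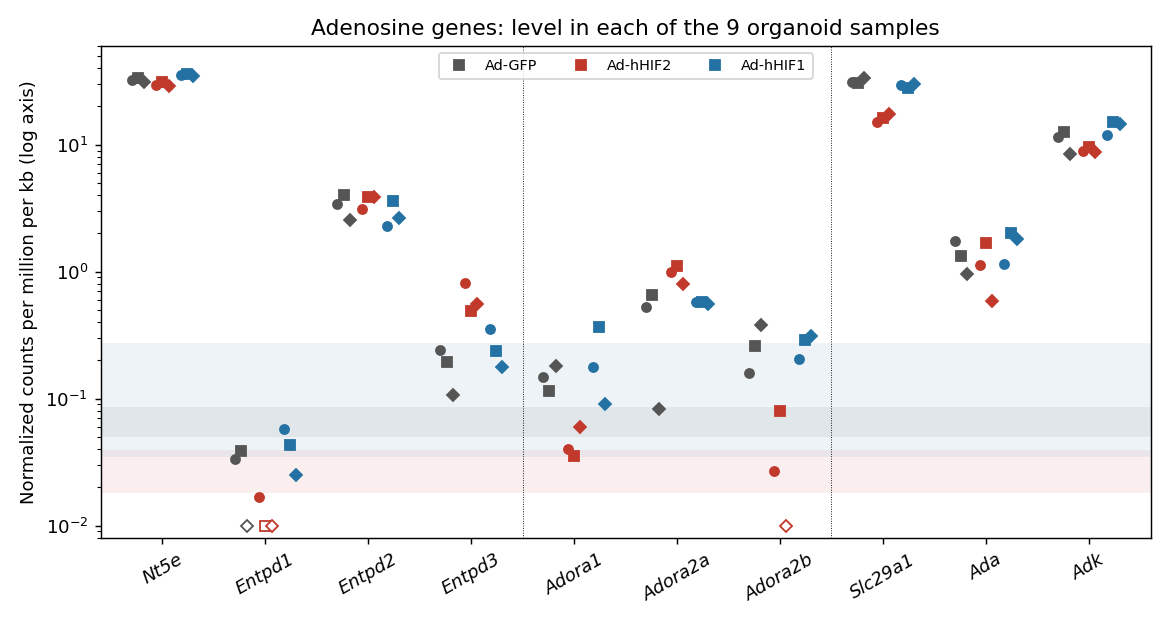
Level of each gene (normalized CPM per kb, log axis) in each of the 9 samples, with production, receptor and clearance genes separated by dotted lines. Circles, squares and diamonds are replicates 1, 3 and 4, open symbols at the lower edge are counts of 0, and the shaded bands give the range of the silent receptor genes in the group of that colour. In Ad-GFP, Nt5e lies at 31.4 to 33.6 and Slc29a1 at 30.4 to 33.6, and the Ad-hHIF2 values of Slc29a1 lie at 15 to 17.6.

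Ad-hHIF2 was first compared with Ad-GFP. In this comparison 3 of the 10 genes passed an adjusted p of 0.05: Slc29a1 and Adora1 fell and Entpd3 rose. Of the 10, 8 passed the count filter, and Entpd1 and Adora2b did not. Adora1 reached the filter's level in all 3 Ad-GFP samples but in 1 Ad-hHIF2 sample, and Adora2a in 2 and 3, so each was tested only through the group where it was higher, and the counts of members are a description. The 3 of 8 stand beside 29.5% of all 14987 genes tested, and Entpd3 and Adora1, the 2 that also changed at least 2-fold, beside 6.73%. The ranges of the groups did not overlap for 5 of the 8 (Slc29a1, Entpd3, Adora1, Adora2a and Nt5e), against 45.8% of all genes. Ad-hHIF1 and Ad-hHIF2 were both set against the same 3 Ad-GFP samples, so these comparisons are not independent. A lower value in bulk RNA cannot tell fewer cells of a type from less RNA per cell.

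**Figure D2:**
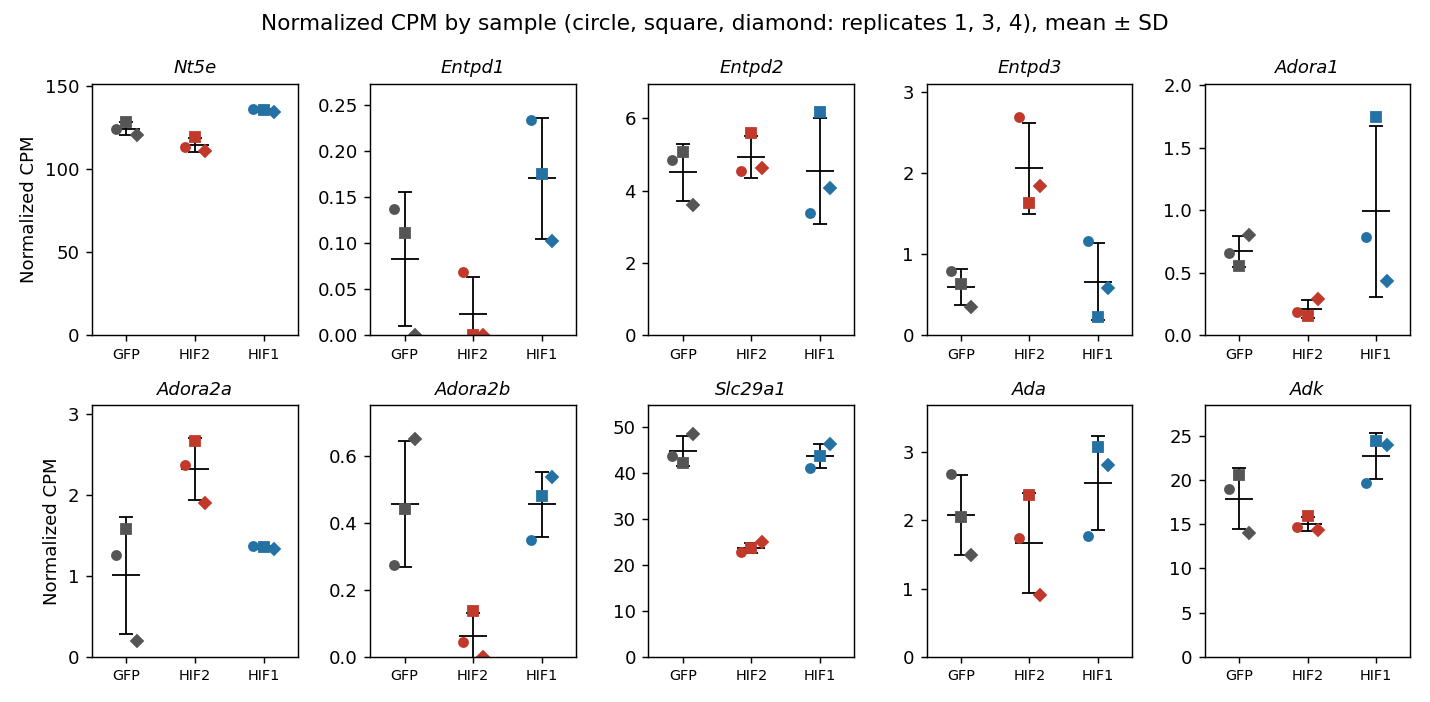
Normalized CPM of each gene in the 3 samples of each group (circle, square and diamond are replicates 1, 3 and 4), with the mean and SD as bars and each axis starting at 0. Slc29a1 lies at 22.7 to 24.9 CPM in Ad-hHIF2 and at 41 CPM or more elsewhere, and Entpd3 is highest in the 3 Ad-hHIF2 samples.

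Among the production enzymes, Nt5e makes the adenosine itself. Its 3 Ad-GFP samples had 123.6, 128.1 and 120.3 CPM, the Ad-hHIF2 samples 113, 118.8 and 110.7 CPM and the Ad-hHIF1 samples 135.9, 135.4 and 134 CPM. Every Ad-hHIF2 sample was below every Ad-GFP sample and every Ad-hHIF1 sample above. The differences were small beside those of other genes: the log2 fold change against Ad-GFP was -0.11 in Ad-hHIF2 (SE 0.0706, edgeR adjusted p = 0.258) and 0.12 in Ad-hHIF1 (SE 0.0686, adjusted p = 0.639), and the 95% intervals ran from -0.27 to 0.05 and from -0.03 to 0.28. With libraries scaled by total counts alone, the Ad-hHIF2 value was 0.14. Set directly against Ad-hHIF1, Nt5e fell by 0.24 on the log2 scale in Ad-hHIF2 (SE 0.0639, adjusted p = 0.0192), a value of -0.06 (adjusted p = 0.823) with total counts alone and of 0.03 on deposited TPM with a pseudocount of 1. It did not pass without Ad-hHIF2 replicate 1 or 4 or Ad-hHIF1 replicate 4 (adjusted p 0.0537 to 0.092).

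Entpd3, an ectonucleotidase best known from neurons and pancreatic islets, rose in Ad-hHIF2. Its counts were 29, 23 and 7 in Ad-GFP, 118, 83 and 57 in Ad-hHIF2 and 40, 5 and 23 in Ad-hHIF1. Normalized, these were 0.792, 0.637 and 0.35 CPM, then 2.7, 1.63 and 1.84 CPM, and 1.16, 0.219 and 0.588 CPM. All 3 Ad-hHIF2 samples were above the other 6, and Ad-hHIF1 spanned the Ad-GFP range. The level was 3.36-fold that of Ad-GFP (log2 fold change 1.75, SE 0.375, 95% interval 0.89 to 2.60, adjusted p = 0.00903). The call held in all 6 fits that dropped 1 sample, with adjusted p from 0.0134 to 0.0432. With the silent receptor genes as a covariate it was 1.13 with adjusted p = 0.24, and on centred TPM it was 0.40 with adjusted p = 0.107. The summed background was lower in every Ad-hHIF2 sample than in every Ad-GFP sample, opposite in direction to Entpd3, and its part in the result was not tested beyond that fit.

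Entpd2, the highest of Entpd1, Entpd2 and Entpd3, prefers ATP and releases ADP. It had 4.84, 5.06 and 3.6 CPM in Ad-GFP, 4.54, 5.59 and 4.62 CPM in Ad-hHIF2 and 3.38, 6.17 and 4.07 CPM in Ad-hHIF1. The groups overlapped, with log2 fold changes against Ad-GFP of 0.12 (95% interval -0.28 to 0.53, edgeR adjusted p = 0.643) and 0.00 (-0.61 to 0.60, adjusted p = 0.998). In GENCODE M21 on GRCm38, Entpd2 (chr2:25395874-25401321, plus strand) overlaps Npdc1 on the same strand, and its count was a whole number in 5 of 9 samples, so reads may be split between them. Entpd1 had 0 to 8 counts per sample and was filtered from all comparisons. A count of 0, as in Ad-GFP replicate 4 and Ad-hHIF2 replicates 3 and 4, still allows up to 3 counts in a library.

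Within each sample, Entpd2 made up most of the summed level per kb of Entpd1, Entpd2 and Entpd3. Its share was 92.6%, 94.6% and 96.0% in Ad-GFP, 78.9%, 88.7% and 87.3% in Ad-hHIF2 and 84.9%, 92.7% and 92.8% in Ad-hHIF1. Entpd3 held 6.52%, 4.5% and 4.02% in Ad-GFP and 20.7%, 11.3% and 12.7% in Ad-hHIF2, and 13%, 6.14% and 6.27% in Ad-hHIF1, whose replicate 1 lay above 2 of the Ad-hHIF2 samples. The Entpd3 share averaged 14.9% ± 5.07 in Ad-hHIF2 against 5.01% ± 1.33 in Ad-GFP (SD, n = 3 each; two-sided exact permutation p = 0.10, the smallest that 3 against 3 allows), and 8.47% ± 3.92 in Ad-hHIF1 (exact permutation p = 0.30 against Ad-hHIF2). Shares within a sample do not depend on the scaling of libraries, but they do depend on the effective length estimated in each sample. In Ad-hHIF1 replicate 3, the 5 counts of Entpd3 gave 0.219 CPM and 0.239 CPM per kb. In Ad-hHIF1 replicate 1 the values were 1.16 CPM and 0.352 CPM per kb.

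Of the receptors, Adora1, the Gi-coupled receptor, fell in Ad-hHIF2 at low counts. It had 24, 20 and 16 counts in Ad-GFP, 8, 8 and 9 in Ad-hHIF2 and 27, 40 and 17 in Ad-hHIF1. These were 0.656, 0.554 and 0.8 CPM, then 0.183, 0.157 and 0.291 CPM, and 0.785, 1.75 and 0.435 CPM. All Ad-hHIF2 values were below the other 6. The log2 fold change against Ad-GFP was -1.67 (SE 0.472, 95% interval -2.74 to -0.60, edgeR adjusted p = 0.0281). It passed in none of the 6 fits that left out 1 sample (-1.94 to -1.49, adjusted p 0.0512 to 0.126), nor without the count filter (-1.64, adjusted p = 0.107), with total-count scaling (-1.43, adjusted p = 0.095) or in a fit of all 9 samples (-1.67, adjusted p = 0.0642), and with the silent receptor genes as a covariate it was -0.84 (adjusted p = 0.33). The highest Adora1 value, in Ad-hHIF1 replicate 3, was in the sample with the highest background (467.9 CPM), and the 3 Ad-hHIF2 values of 0.0353 to 0.0602 CPM per kb lay beside silent receptor levels of 0.018 to 0.039. How far background contributed was not tested beyond that fit.

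Adora2b, the low-affinity Gs-coupled receptor of epithelial barrier studies, had 10, 16 and 13 counts in Ad-GFP, 2, 7 and 0 in Ad-hHIF2 and 12, 11 and 21 in Ad-hHIF1. That was 0.273 to 0.65 CPM, 0 to 0.137 CPM and 0.349 to 0.537 CPM. Every Ad-hHIF2 sample was below the other 6. It was filtered out of the Ad-GFP comparison, and without the filter its log2 fold change was -2.67 (SE 1.01, adjusted p = 0.047). It reached the filter's level in 3 Ad-hHIF1, 2 Ad-GFP and 0 Ad-hHIF2 samples, so it entered the comparison with Ad-hHIF1 only through the groups where it was higher. There its log2 fold change was -2.70 (SE 0.806, 95% interval -4.49 to -0.91, adjusted p = 0.0324). The value ran from -3.98 (without Ad-hHIF2 replicate 3) to -2.24, with adjusted p from 0.0293 to 0.142, when each of the 9 samples was left out, and its adjusted p was 0.111 with the silent receptor covariate. Its Ad-hHIF2 levels, 0 to 0.0805 CPM per kb, overlapped the silent genes, whose part was not tested further.

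Adora2a, a high-affinity Gs-coupled receptor, was the adenosine receptor gene with the highest count in 7 of 9 samples. It had 46, 57 and 4 counts in Ad-GFP, 104, 136 and 59 in Ad-hHIF2 and 47, 31 and 52 in Ad-hHIF1, or 1.26, 1.58 and 0.2 CPM, then 2.38, 2.67 and 1.91 CPM, and 1.37, 1.36 and 1.33 CPM. The 3 Ad-hHIF2 values were the 3 highest, and Ad-GFP replicate 4 stood far below its group. The difference from Ad-GFP was 1.14 on the log2 scale with a 95% interval of -0.02 to 2.30, and it did not pass (SE 0.509, edgeR adjusted p = 0.128). Without Ad-GFP replicate 4 it was 0.73 (adjusted p = 0.0803), and it passed in DESeq2 (1.16, adjusted p = 0.0468), without the count filter (1.17, adjusted p = 0.00529) and with total counts alone (1.39, adjusted p = 0.00188). In limma on TPM with pseudocounts of 1 and 0.1 it passed too (0.15, adjusted p = 0.00208, and 0.85, adjusted p = 0.00331), but not on centred TPM (0.44, adjusted p = 0.173). With the silent receptor covariate it was 1.02 (edgeR adjusted p = 0.263). Against Ad-hHIF1 it was 0.78 (SE 0.495, adjusted p = 0.288).

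**Figure D3:**
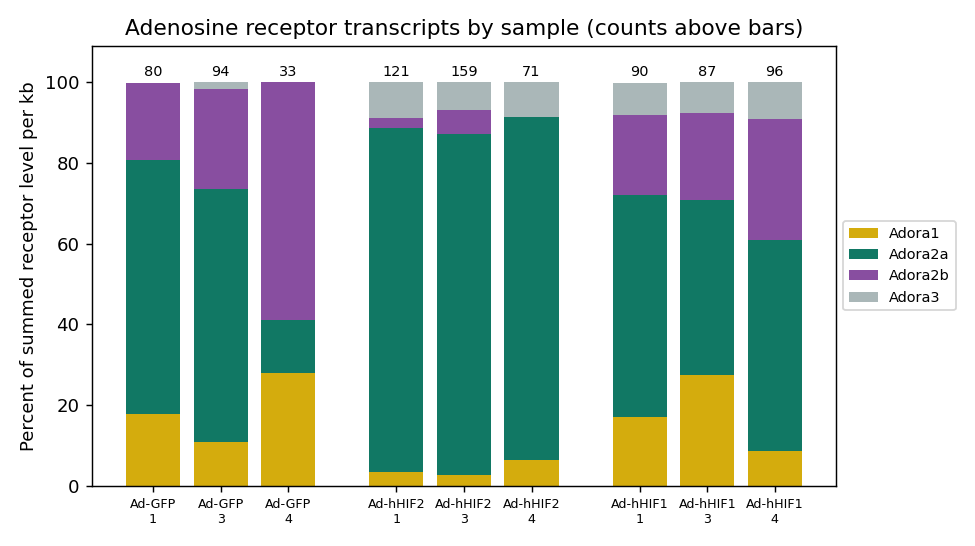
Make-up of the adenosine receptor transcripts in each sample, as the percent of the summed level per kb of Adora1, Adora2a, Adora2b and Adora3, with the summed counts above each bar. Adora2a is 84.4% to 84.9% in Ad-hHIF2 replicates 3 and 4 and 85.3% in replicate 1, against 13% to 63.0% in the other 6 samples.

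The make-up of the receptor transcripts was dominated by Adora2a in Ad-hHIF2. Adora2a held 85.3%, 84.4% and 84.9% of the summed level per kb of the adenosine receptors in Ad-hHIF2, 63.0%, 62.7% and 13% in Ad-GFP and 55.0%, 43.3% and 52.5% in Ad-hHIF1. The 3 Ad-hHIF2 samples did not overlap with the other 6 (84.9% ± 0.451 against 46.2% ± 28.8 in Ad-GFP, SD, n = 3 each, two-sided exact permutation p = 0.10, the smallest possible). Adora2b held 2.3%, 6.1% and 0.0% in Ad-hHIF2 and 19.2% to 59.1% in Ad-GFP, and Adora1 2.68% to 6.42% and 10.9% to 28.0%. Few counts lay behind these shares: 80, 94 and 33 in Ad-GFP, 121, 159 and 71 in Ad-hHIF2 and 89.6, 87 and 95.8 in Ad-hHIF1. Counted without length, Adora2a was 4 of 33 in Ad-GFP replicate 4 (12.1%, 95% Wilson interval 4.82% to 27.3%) and 46 of 80 in replicate 1 (57.5%, 46.6% to 67.7%), intervals that do not meet and that cover counting error only. Adora3, the remaining receptor gene, had 0 to 1 counts in Ad-GFP, 3.03 to 7.69 in Ad-hHIF2 and 3.58 to 5.8 in Ad-hHIF1. The shares were not corrected for background. The silent receptor genes gave 0.018 to 0.039 CPM per kb in Ad-hHIF2 and 0.0496 to 0.0861 CPM per kb in Ad-GFP. The part of this difference in the shares was not tested.

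Slc29a1, which moves adenosine across the membrane down its gradient, fell in Ad-hHIF2 in all 3 samples. Its Ad-GFP samples had 43.6, 42.2 and 48.4 CPM, the Ad-hHIF2 samples 22.7, 23.7 and 24.9 CPM and the Ad-hHIF1 samples 41, 43.6 and 46.2 CPM. The Ad-hHIF2 values formed a narrow group below the other 6, which overlapped with each other. The means were 44.7 ± 3.23, 23.7 ± 1.1 and 43.6 ± 2.61 CPM (SD, n = 3 each). In Ad-hHIF2 the level was 0.533 times that in Ad-GFP (log2 fold change -0.91, SE 0.0807, 95% interval -1.09 to -0.73, edgeR adjusted p = 9.69e-05), which falls short of the 2-fold limit. Against Ad-hHIF1 it fell by 0.88 (SE 0.0770, adjusted p = 2.45e-05). In Ad-hHIF1 against Ad-GFP the difference was -0.04 (95% interval -0.23 to 0.16, adjusted p = 0.911).

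The fall of Slc29a1 stayed past the threshold with any sample left out (log2 fold change -0.96 to -0.84, edgeR adjusted p 0.000135 to 0.00128). With the silent receptor genes as a covariate it was -0.91 (edgeR adjusted p = 0.000103). Its size depended on the scaling. The TMM factor was 1.31 in Ad-hHIF2 replicate 1 and 0.907 to 1.03 in all other samples. With total counts alone the fall of Slc29a1 was -0.66 (edgeR adjusted p = 0.00292). On the deposited TPM with pseudocounts of 1 and 0.1 it was -0.39 (adjusted p = 0.393) and -0.50 (adjusted p = 0.376), values that carry a shift of all genes' median by 0.12 and 0.30 between these groups. After each sample was centred on its median, it was -0.90 (adjusted p = 0.000619). Relative to Nt5e, a ratio that no library scaling alters, Slc29a1 had 35.3, 32.9 and 40.2 counts per 100 Nt5e counts in Ad-GFP, 20.1, 19.9 and 22.5 in Ad-hHIF2 and 30.2, 32.2 and 34.5 in Ad-hHIF1. The Ad-hHIF2 ratios were again below all others (20.8 ± 1.45 against 36.1 ± 3.72, n = 3 each, exact permutation p = 0.10). Slc29a1 held 89.1% to 93.4% of the summed level per kb of Slc29a1 to Slc29a4 in all 9 samples. The gene (chr17:45585200-45599606, minus strand) has 25 transcripts in the tables and overlaps Gm17080 on the other strand, and its count was whole in 1 of 9 samples.

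**Figure D4:**
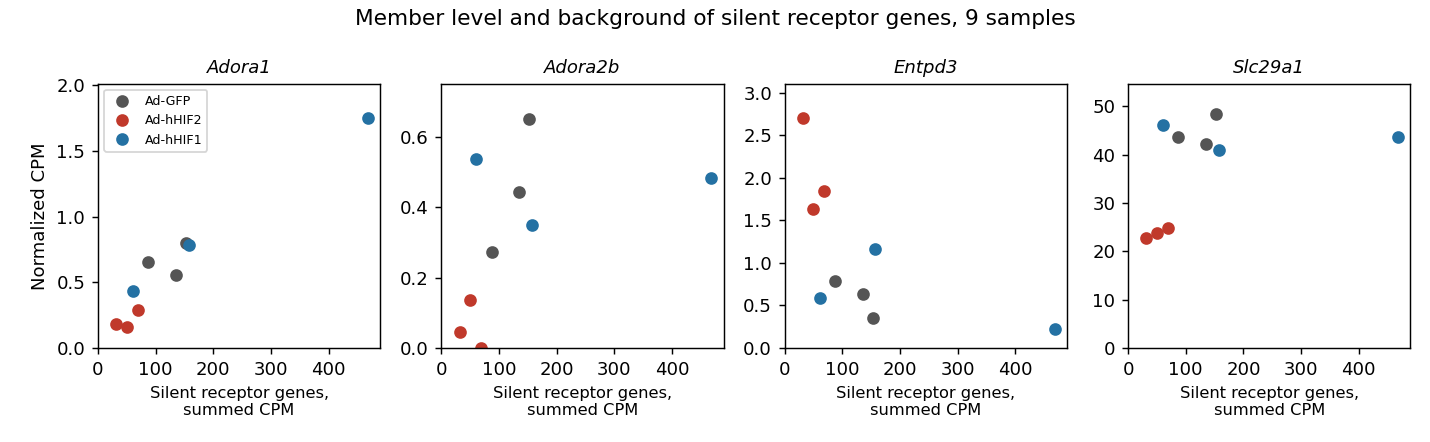
Normalized CPM of Adora1, Adora2b, Entpd3 and Slc29a1 (vertical, from 0) against the summed CPM of the silent receptor genes (horizontal) in the 9 samples, coloured by group. The Ad-hHIF2 samples lie at 31.7 to 69 CPM of background, and Adora1 is highest in the sample at 467.9 CPM.

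Adk, which returns adenosine to the AMP pool, had 19, 20.6 and 14 CPM in Ad-GFP, 14.7, 15.9 and 14.4 CPM in Ad-hHIF2 and 19.7, 24.4 and 24 CPM in Ad-hHIF1. The Ad-hHIF2 samples were all below the Ad-hHIF1 samples, and both overlapped with Ad-GFP, whose replicate 4 was low. Adk fell by 0.60 on the log2 scale against Ad-hHIF1 (SE 0.138, 95% interval -0.91 to -0.29, edgeR adjusted p = 0.01), with values of -0.71 to -0.55 and adjusted p up to 0.0445 when any sample was left out, and -0.42 (adjusted p = 0.105) with total counts alone. Against Ad-GFP neither HIF passed, at -0.26 (SE 0.134, adjusted p = 0.186) for Ad-hHIF2 and 0.34 (SE 0.153, adjusted p = 0.588) for Ad-hHIF1. Without Ad-GFP replicate 4, Ad-hHIF2 was at -0.39 (adjusted p = 0.00979).

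Ada, the deaminase, had a lower level per kb than Adk in every sample. It had 2.68, 2.05 and 1.5 CPM in Ad-GFP, 1.74, 2.37 and 0.906 CPM in Ad-hHIF2 and 1.77, 3.07 and 2.81 CPM in Ad-hHIF1, and the groups overlapped. No difference passed: -0.30 in Ad-hHIF2 (95% interval -1.16 to 0.55, edgeR adjusted p = 0.581), 0.28 in Ad-hHIF1 (-0.48 to 1.05, adjusted p = 0.814) and -0.59 between the HIFs (-1.43 to 0.25, adjusted p = 0.294). The intervals are wide. Per kb, Ada was at 6.68 to 17.4 per 100 of Adk in the 9 samples, and the group means were 12.3 ± 2.29 in Ad-GFP, 12.2 ± 5.37 in Ad-hHIF2 and 11.7 ± 1.96 in Ad-hHIF1 (SD, n = 3 each).

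In Ad-hHIF1 against Ad-GFP, none of the 9 members tested passed in edgeR, beside 0% of all 15233 genes and 8.59% of genes at an unadjusted p under 0.05, and 0 of the 9 had one. No alternative called any of them. DESeq2 passed 68 genes higher and 76 lower over the whole table, but among the members it gave an adjusted p only for Nt5e (0.383) and Slc29a1 (0.92). The other members had none in DESeq2 and could not be called there. Only Nt5e had groups that did not overlap, against 17.4% of all genes. In the direct comparison, Ad-hHIF2 against Ad-hHIF1, 6 of 9 members passed: Entpd3 rose and Slc29a1, Adk, Nt5e, Adora1 and Adora2b fell, beside 25.8% of all 15556 genes. Of these, Entpd3, Adora1 and Adora2b were called at 2-fold, beside 6.11%. Adora1 and Adora2b reached the filter's level in 3 Ad-hHIF1 samples each but in 1 and 0 Ad-hHIF2 samples, so these counts too are a description. The groups did not overlap for 7 of the 9, against 41.8% of all genes. Entpd3 was 1.61 (SE 0.527, adjusted p = 0.0473) and Adora1 -2.22 (SE 0.589, adjusted p = 0.0198). Without Ad-hHIF1 replicate 3, the library with the most background, the values were 1.22 (adjusted p = 0.0812) and -1.56 (adjusted p = 0.073), and Adora2b was -2.68 (adjusted p = 0.0586), so none of these 3 passed. Slc29a1, Adk and Nt5e still passed without it (-0.89, -0.56 and -0.25). With any 1 of the 9 samples left out, 0 to 3 members were called, and 0 also without Ad-hHIF2 replicate 1. Adora1 was lost without Ad-hHIF2 replicate 3 as well (adjusted p = 0.0808), Entpd3 stayed called only without Ad-GFP replicate 4 or Ad-hHIF1 replicate 1, and Adora2b only without Ad-GFP replicate 4 or Ad-hHIF2 replicate 3.

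**Figure D5:**
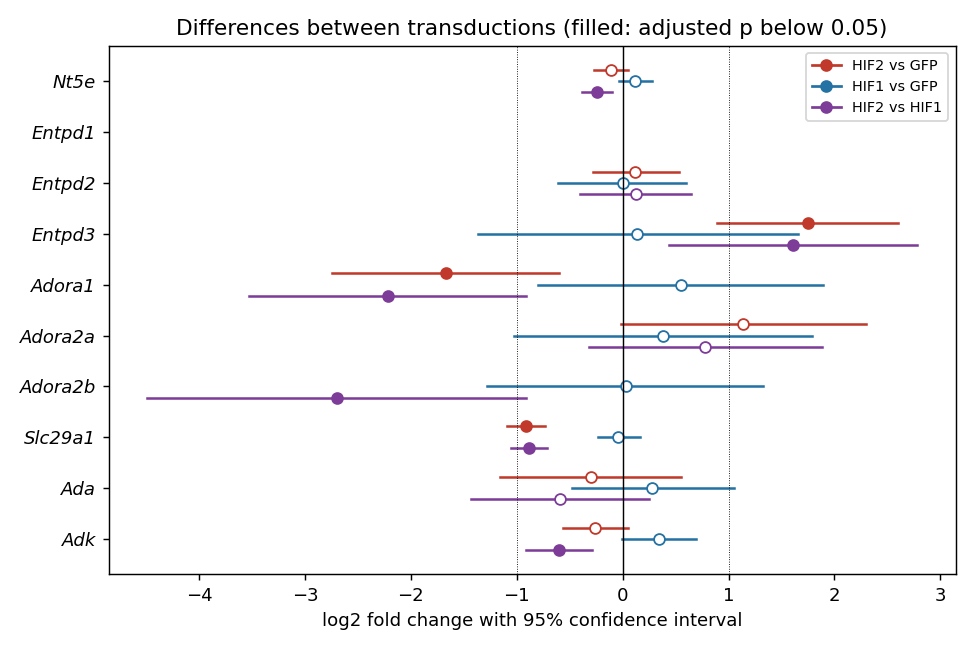
Log2 fold change with its 95% interval for each member in the 3 comparisons, dotted lines marking 2-fold. Filled points passed an adjusted p of 0.05. Slc29a1 and Adora1 in red lie left of 0 and Entpd3 right of it, no blue point (Ad-hHIF1 against Ad-GFP) is filled, and members removed by the count filter have no point.

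The rest of the pathway was taken from lists of genes around adenosine. In Ad-hHIF2 against Ad-GFP, of 6 other nucleotidases and phosphatases tested (Enpp1 and Enpp3 of the cell surface, and Entpd4, Entpd5, Entpd6 and Entpd7, which act inside the cell or are secreted), 2 rose and 0 fell, beside 15.9% and 13.6% of all genes. Their median log2 fold change was 0.05, against -0.012 over all genes tested. Enpp1, which hydrolyses ATP to AMP and pyrophosphate, went from 27.9 ± 3.36 to 58.9 ± 2.69 CPM (log2 fold change 1.08, SE 0.0922, edgeR adjusted p = 7.65e-05), and Entpd7, an intracellular Entpd enzyme, from 4.46 ± 0.981 to 8.04 ± 0.967 CPM (0.87, adjusted p = 0.00832). The rise of Entpd7 was 0.07 (adjusted p = 0.836) on centred TPM, which takes transcript length into account, and 0.78 (adjusted p = 0.0758) with the silent receptor covariate, and its levels per kb were 1.34 ± 0.623 and 1.57 ± 0.255. Both were above Ad-hHIF1 too (1.05, adjusted p = 2.31e-05, and 0.93, adjusted p = 0.0135). Entpd6 had 8.54 ± 2.62 and 7.76 ± 0.754 CPM and did not pass. In Ad-hHIF2 against Ad-hHIF1, where 13.7% of all genes rose and 12% fell, Entpd5 fell by 0.47 (adjusted p = 0.00997). Over the alternatives the Entpd5 value ran from -0.53 to -0.01, with adjusted p up to 0.952. Alpl, tissue-nonspecific alkaline phosphatase, fell by 2.55 (adjusted p = 0.0142), at group means of 0.111 and 0.682 CPM. This result passed in 6 of 9 fits with a sample left out. Alpl had 0.0647 to 0.177 CPM in Ad-hHIF2 and was filtered out of the Ad-GFP comparison. It was therefore tested here only through the groups where it was higher. Of 5 intracellular 5′-nucleotidases tested (median -0.22), Nt5c2 fell in Ad-hHIF2 (-0.34, adjusted p = 0.0107), a value of 0.13 to 0.16 on uncentred TPM, and Nt5c (16.7 ± 0.507 and 14.2 ± 1.69 CPM) and Nt5c3 (22.5 ± 1.01 and 20.7 ± 1.15 CPM) did not pass.

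Of 3 other nucleoside transporters tested (median -1.07), Slc29a2 (ENT2), another equilibrative transporter of adenosine, fell from 4 ± 0.163 to 1.89 ± 0.108 CPM in Ad-hHIF2 (log2 fold change -1.07, SE 0.186, edgeR adjusted p = 0.00328) and was also lower than in Ad-hHIF1 (-1.03, adjusted p = 0.00553). Slc29a3, of lysosomes and mitochondria, had 2.67 ± 0.432 and 2.97 ± 0.503 CPM and did not pass. Among 11 purine enzymes tested, 2 rose and 3 fell, beside the same 15.9% and 13.6% of all genes, with a median of -0.22. Ampd3, AMP deaminase, rose from 3.79 ± 0.538 to 14.3 ± 0.633 CPM (1.93, SE 0.127, adjusted p = 1.76e-05), 3.82-fold. Ahcyl1 rose (0.40, adjusted p = 0.0167). Aprt, which salvages adenine, fell (-0.52, adjusted p = 0.000758), a value of -0.27 (adjusted p = 0.288) with total counts alone and of -0.06 and -0.07 on uncentred TPM. Ahcy, which releases adenosine from S-adenosylhomocysteine, fell (-0.36, adjusted p = 0.0201), as did Ampd2 (-0.35, adjusted p = 0.0185), and on uncentred TPM these 2 were at 0.08 to 0.09 and at 0.07 to 0.09. Gda, guanine deaminase, fell against Ad-hHIF1 (-1.45, adjusted p = 0.0446), a result that passed in 2 of 9 fits with a sample left out (-1.78 to -0.91, adjusted p up to 0.171), and was at -0.61 against Ad-GFP (adjusted p = 0.268).

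Of 7 ATP release channels and nucleotide receptors tested, 3 rose and 0 fell, again beside 15.9% and 13.6% of all genes, with a median of 0.56. Gja1 (connexin 43), whose hemichannels release ATP, rose from 21.1 ± 2.16 to 73.8 ± 5.74 CPM (log2 fold change 1.81, SE 0.0948, edgeR adjusted p = 5e-06), and its Ad-hHIF1 mean was 27.3 ± 1.89 CPM. P2rx4, an ATP-gated channel, rose from 16.4 ± 0.422 to 24 ± 1.23 CPM (0.56, adjusted p = 0.00102), and P2ry1, an ADP receptor, from 0.628 ± 0.129 to 1.31 ± 0.257 CPM (1.07, adjusted p = 0.0488), a result that passed in 0 of 6 fits with a sample left out. Of 10 G proteins and adenylyl cyclases tested, 5 rose and 2 fell, beside those same shares, with a median of 0.33. Adcy1 rose from 36.9 ± 2.28 to 72.1 ± 1.09 CPM (0.97, adjusted p = 3.24e-05), and the stimulatory subunits Gnal (1.07, adjusted p = 0.00971) and Gnas (0.42, adjusted p = 0.0258) rose too. On centred TPM Gnal was 0.20 (adjusted p = 0.371), and against Ad-hHIF1 it passed in 3 of 9 fits with a sample left out. Gnas passed in 3 of 6 fits with a sample left out, and with the silent receptor covariate it was 0.30 (adjusted p = 0.154). Of the inhibitory subunits through which Adora1 signals, Gnai2 (0.39, adjusted p = 0.00508) and Gnai3 (0.26, adjusted p = 0.0495) rose and Gnai1 fell (-1.02, adjusted p = 0.0207), and Gnai1 passed in 3 and Gnai3 in 0 of 6 leave-one-out fits. With the silent receptor covariate Gnai2 was 0.24 (edgeR adjusted p = 0.0614) and Gnai3 was 0.22 (edgeR adjusted p = 0.16). Adcy9 fell (-0.48, adjusted p = 0.0199), a value of -0.23 (adjusted p = 0.421) with total counts alone and of 0.00 and -0.02 on uncentred TPM. Adcy6 rose against Ad-hHIF1 (0.26, adjusted p = 0.0153), a result that passed in 7 of 9 fits with a sample left out (edgeR adjusted p up to 0.0847). In all, 19 of 42 list genes tested passed against Ad-GFP (12 rose and 7 fell), or 45.2% beside 29.5% of all genes. With total counts alone, all 12 rises but only 1 fall (Slc29a2) still passed, and over all genes the passing shares were then 23.3% higher and 5.52% lower. Of the 19, 11 passed in every fit that dropped 1 sample. Besides those named, Ahcy and Ampd2 passed in 3, Adcy9 in 4 and Ahcyl1 in 5 of the 6 such fits. Against Ad-hHIF1, 19 of 45 passed, or 42.2% beside 25.8% of all genes, and 10 of the 19 passed in every such fit. The shares of 45.2% and 42.2% are a description, because the lists were chosen with earlier results of these data known. In Ad-hHIF1 against Ad-GFP 0 genes of any of these lists passed.

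Other cells were looked for by their markers. The 8 markers of goblet, Paneth, enteroendocrine and tuft cells summed to 6.2 to 10.3 CPM in Ad-GFP, 3.25 to 3.85 CPM in Ad-hHIF2 and 4.83 to 6.95 CPM in Ad-hHIF1, with 2 of the 8 averaging at least 1 CPM and Tff3, Lyz1 and Defa24 at 0 in every Ad-GFP and Ad-hHIF2 sample. Muc2, the secreted mucin of goblet cells, fell from 5.86 ± 1.47 to 1.71 ± 0.267 CPM (log2 fold change -1.77, SE 0.237, edgeR adjusted p = 0.000882) and was also lower than in Ad-hHIF1 (-1.11, adjusted p = 0.00479).

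The 6 immune markers summed to 9.45 to 15.7 CPM in Ad-GFP, 11.4 to 15.2 CPM in Ad-hHIF2 and 8.49 to 10.9 CPM in Ad-hHIF1. Most of this was Cd68, the only member to average at least 1 CPM, with 10.6 ± 2.91 CPM in Ad-GFP and 13.6 ± 2.1 CPM in Ad-hHIF2. Cd68 did not pass against Ad-GFP (log2 fold change 0.38, edgeR adjusted p = 0.179). Against Ad-hHIF1 (8.92 ± 0.824 CPM) it rose by 0.60 (edgeR adjusted p = 0.0374). Ptprc (CD45), the pan-leukocyte marker, fell from 18 to 24 counts per sample in Ad-GFP to 0 to 3 in Ad-hHIF2 (log2 fold change -3.92, SE 0.731, edgeR adjusted p = 0.00472), and it had 5 to 12 in Ad-hHIF1 (-2.64 between the HIFs, adjusted p = 0.0472). Its Ad-hHIF2 values, 0 to 0.0686 CPM, lay below the 0.137 CPM at which Adora2b missed the filter's level. Ptprc was thus tested only through the groups where it was higher. Sums of the 4 endothelial markers were 1.61 to 3.11, 1.02 to 1.72 and 1.83 to 2.7 CPM, and those of the 7 fibroblast and muscle markers 12.2 to 17.9, 10.1 to 12.9 and 9.87 to 20.1 CPM. Muc2 and Ptprc were thus lower in Ad-hHIF2, as were Slc29a1 and Adora1 and opposite to Entpd3. The other tested markers of their lists, Dclk1 and Cd68, were not lower than in Ad-GFP (log2 fold changes 0.19 and 0.38, edgeR adjusted p = 0.678 and 0.179). The part of these markers in the members' results was not tested.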

How the data were processed

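RNA of 9 organoid cultures was measured by sequencing. The authors estimated expected counts with RSEM, and the deposited expected counts are not normalized; the deposited TPM, also made by the authors with RSEM, were used only in alternatives. The aligner, genome build and strandedness were not given in the sources used here. Rounded expected counts were filtered with filterByExpr, scaled by TMM and fitted by quasi-likelihood in edgeR 4.0.16 under R 4.3.3 (limma 3.58.1), and p-values were Benjamini-Hochberg adjusted over every gene tested. A gene passed at an adjusted p below 0.05 and was called where the change also reached 2-fold. A HIF and Ad-GFP were fitted in their 6 samples, and the HIFs were set against each other in all 9. Intervals are 95%. Values per sample are TMM-scaled CPM.

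Alternatives were scaling by median ratios or total counts, a floor of 10 counts per sample or none, DESeq2 1.42.0, limma on log2(TPM + 1) and log2(TPM + 0.1), the latter also centred on each sample's median (added after the data were seen), a replicate block, a silent-receptor covariate, other sets of samples and each sample left out. Gene positions came from GENCODE M21 (GRCm38) by identifier. The genes named are the 10 members, genes of the pathway lists that passed in any comparison, the 2 of each list with the highest mean TPM, and Epas1 and Hif1a. Adora3 and the markers are named outside this rule. The neuronal and glial marker list is not reported here. The members and lists were chosen with earlier results of these data known. The tests of each HIF against Ad-GFP were tested on simulated counts. None of the 9 pairs of samples within a group agreed within sampling noise. Library totals of 21722618 to 51119041 expected counts limit precision for members with under 50 counts per sample.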

Additional observations from a re-analysis of the deposited data

How the results depend on the processing

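Members called in Ad-hHIF2 against Ad-GFP numbered 2, and 0 with at least 10 counts in every sample (5 members were then tested), with limma on log2(TPM + 1), on log2(TPM + 0.1) and on its centred form (chosen after seeing the data), and with the silent-receptor covariate. Over all genes, the 1009 calls became 898, 237, 770, 510 and 741 under these 5. In Ad-GFP and Ad-hHIF2, mean TPM was 0.02 and 0.117 for Entpd3 and 0.0167 and 0.00667 for Adora1. With pseudocounts of 1 and 0.1, such levels could not reach 2-fold on uncentred TPM, so the 0 calls there decide nothing. Entpd3 still passed on both scales in limma (0.13, adjusted p = 0.000754, and 0.81, adjusted p = 0.000485). The members called numbered 3 without the count filter (Adora2a, Adora2b and Entpd3) and in DESeq2 (Adora1, Adora2a and Entpd3). The 2 with total counts were Adora2a and Entpd3, and in a fit of all 9 samples Adora2b and Entpd3. Over all genes, calls under these settings numbered 1301 without the filter, 1102 in DESeq2, 1240 with total counts and 782 in the fit of all 9 samples. With 1 sample left out the members called were 1 to 2, Entpd3 each time and Adora2b as well without Ad-hHIF2 replicate 3. In Ad-hHIF2 against Ad-hHIF1 they numbered 3, and 0 under the same 5 settings, 1 with the replicate block, 6 with no fold minimum and 0 to 3 with 1 sample left out. Mean TPM of the 3 was 0.00667 to 0.117 in these groups, so their 0 calls on uncentred TPM decide nothing either. In Ad-hHIF1 against Ad-GFP 0 members were called under every setting, although in DESeq2 only Nt5e and Slc29a1 had an adjusted p and could be called. Among the members' fold changes, 103 of 133 alternatives kept direction and side of the threshold in the first comparison, 128 of 176 in the second and 130 of 151 in the third.

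Signs that reversed on TPM + 1 and TPM + 0.1 were, against Ad-GFP in Ad-hHIF2, Ada (0.04, 0.12), Nt5e (0.28, 0.32), Adk (0.13, 0.20), Nt5c2 (0.13, 0.16), Ahcy (0.08, 0.09) and Ampd2 (0.07, 0.09), against Ad-hHIF1 Nt5e (0.03, 0.02) and Ampd2 (0.11, 0.14), and in Ad-hHIF1 Slc29a1 (0.05, 0.06). With total counts Nt5e was 0.14 in Ad-hHIF2, and Slc29a1 0.05 and Entpd2 0.06 in Ad-hHIF1. In Ad-hHIF1, values close to 0 also changed sign for Entpd2 (0.00, median-ratio factors), Entpd3 (0.00, replicate block) and, on centred TPM, Adora1 (0.00), Adora2b (-0.07) and Epas1 (-0.03). Total counts and TPM + 0.1 shifted the median of all genes by 0.24 and 0.30 in Ad-hHIF2 against Ad-GFP, and no filter by -0.13. Other causes were not tested. Of the 19 other list genes that passed against Ad-GFP in Ad-hHIF2, 13 passed with total counts (12 higher, 1 lower), 14 with the silent-receptor covariate, 6 on either uncentred TPM scale (all higher) and 10 on centred TPM. Leaving out 1 sample in Ad-hHIF1 moved Entpd2 from -0.28 to 0.17, Adora2b from -0.25 to 0.35, Adora2a from -0.07 to 0.83, Slc29a1 from -0.08 to 0.02, Entpd3 from -0.53 to 0.53 and Adora1 from -0.13 to 0.91, and Entpd2 between the HIFs from -0.07 to 0.39. For the label genes, Epas1 ran from -0.11 to 0.42 in Ad-hHIF1 and Hif1a in Ad-hHIF2 from -0.02 to 0.17. Hif1a in Ad-hHIF1 ran from 0.42 to 0.60 and passed in none of these fits (edgeR adjusted p 0.355 to 0.803).

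Samples share a number only. Same-number correlations were 0.065, 0.064 and 0.11 in Ad-hHIF2 against Ad-GFP, where each sample correlated best with its own number, and from -0.18 to 0.083 elsewhere. With the replicate block, Slc29a1 was -0.91 and Entpd3 1.78 against Ad-GFP, and Adora1 (-2.15, edgeR adjusted p = 0.0514) and Adora2b (-2.80, adjusted p = 0.0537) were lost against Ad-hHIF1. Depth limits Entpd1, Entpd3, Ada and the receptors, all with under 160 counts in any sample.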
